A study of Mus musculus with 9 samples.

Results

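The genes described here are 9 enzymes of amino acid breakdown in mouse liver, Tat, Hpd, Hal, Tdo2, Gls2, Sds, Gldc, Agxt and Prodh. They were chosen by name, with earlier results of these data known, as the rows of the expression table that carry these symbols. Among 34745 genes, each of the 9 was found. All 9 passed the filter on low counts and were tested together with 13701 genes in all. The RNA came from whole liver of C57BL/6 mice, and 3 libraries were sequenced for each of 3 groups. Control mice carry no label of thioacetamide (TAA), a compound that hepatocytes turn into toxic products and that is used to cause liver fibrosis. Both other groups drank water with TAA at 400 mg/L for 16 weeks. From week 13, over the last 4 weeks, 1 of them also received a daily vehicle and the other daily sulodexide, a mixture of heparin-like glycosaminoglycans and dermatan sulfate used as an antithrombotic drug. The labels give no sex, age or sulodexide dose, do not say whether controls received vehicle, and leave unstated whether every library is a separate mouse. The p-values therefore measure the spread between these libraries.

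Amino acids that are not needed for protein are degraded mainly in hepatocytes, where transaminases, dehydratases and oxygenases strip their nitrogen and open their rings. The carbon enters glucose synthesis, ketone formation or the citric acid cycle, and the nitrogen leaves as urea. Many of these enzymes follow feeding state and glucocorticoid or glucagon signals. Tat and Hpd carry out consecutive steps of tyrosine breakdown, Hal and Tdo2 open the histidine and tryptophan pathways, Gls2 is the liver form of glutaminase, Sds, Gldc and Agxt act on serine, glycine and glyoxylate, and Prodh starts the oxidation of proline.

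The libraries held 13803697 to 16655951 counts, of which a single enzyme took from 759, for Prodh in vehicle library 2, to 45492, for Tat in control library 3. The 9 genes together took 0.684% to 0.806% of all counts in the controls, 0.505% to 0.533% with TAA and vehicle, and 0.546% to 0.585% with TAA and sulodexide. Mitochondrially encoded transcripts took 9.89% to 10.9%, 4.79% to 6.52% and 6.24% to 7.85% of the counts in the same groups. Values per library are given as CPM, counts relative to the library's total, scaled by TMM factors that ran from 0.821 to 1.19 and were lower in the controls than in either TAA group. A gene is said to have risen or fallen where the adjusted p of edgeR was below 0.05.

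The stretches of DNA just before the start of 4 of these genes are shown. Tat, Hal and Agxt were among the genes that fell under TAA and vehicle, and Gldc was the only one of the 9 that rose. Each line holds the 250 bases upstream of the RefSeq start in build GRCm38.p6, 5′ to 3′ on the gene's own strand. Tat lies at chr8:109990186-109990435 on the plus strand, Hal at chr10:93488518-93488767 on the plus strand, Agxt at chr1:93134990-93135239 on the plus strand and Gldc at chr19:30175442-30175691 on the minus strand. Capitals mark matches, on either strand, to the CCAAT box (CCAAT), the TATA box (TATAAA), a glucocorticoid receptor motif (AGAACA) and a C/EBP site (TTGCNNAA).
Tat upstream: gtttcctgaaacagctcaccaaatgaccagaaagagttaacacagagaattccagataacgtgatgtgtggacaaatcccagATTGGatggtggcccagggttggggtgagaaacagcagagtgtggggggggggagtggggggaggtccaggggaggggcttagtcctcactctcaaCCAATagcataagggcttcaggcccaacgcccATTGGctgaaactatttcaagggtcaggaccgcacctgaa
Hal upstream: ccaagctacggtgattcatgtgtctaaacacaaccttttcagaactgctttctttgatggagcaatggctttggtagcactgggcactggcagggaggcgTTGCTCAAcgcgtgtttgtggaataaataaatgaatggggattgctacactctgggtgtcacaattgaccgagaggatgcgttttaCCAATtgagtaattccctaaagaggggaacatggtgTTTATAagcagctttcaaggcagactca
Agxt upstream: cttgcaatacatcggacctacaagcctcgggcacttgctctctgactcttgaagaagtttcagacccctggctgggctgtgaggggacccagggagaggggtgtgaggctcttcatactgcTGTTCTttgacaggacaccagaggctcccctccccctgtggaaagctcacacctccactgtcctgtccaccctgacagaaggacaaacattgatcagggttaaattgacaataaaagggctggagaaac
Gldc upstream: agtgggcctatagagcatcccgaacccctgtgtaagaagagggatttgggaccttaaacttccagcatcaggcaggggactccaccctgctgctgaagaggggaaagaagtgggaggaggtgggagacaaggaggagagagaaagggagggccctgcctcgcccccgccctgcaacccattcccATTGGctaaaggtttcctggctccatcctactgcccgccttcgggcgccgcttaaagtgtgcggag
Over the 7 of 9 genes with an entry in the promoter table, 4 held CCAAT, against 33.8% of 32851 promoters. TATAAA was found in 2, AGAACA in 1 and TTGCNNAA in 1, against 12.4%, 16.1% and 9.6% of all promoters. Tdo2 was among the genes with CCAAT and with TATAAA, but all 250 of its bases lie in exons of the gene in the GENCODE annotation. So do 102 of the bases of Prodh and 4 of those of Hpd. Gldc and Tat, which moved in opposite directions, both held CCAAT matches. The cyclic AMP response motif TGACG and the HNF1 motif GTTAAT had no match in the 7. All 4 genes shown hold a match to some motif, as does Tdo2. Hpd and Prodh, which had the largest falls under TAA and vehicle, had no match to any motif and are not shown. These are matches of letters, not measured binding.

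In livers given TAA and vehicle, 8 of the 9 enzymes fell against control and Gldc rose. Prodh fell by 76.5% and Hpd fell by 66.0%, the largest falls, Hal fell by 27.2%, the smallest, and Gldc rose by 34.4%. Of all genes tested, 43.4% were called in this comparison, 20.4% lower and 23.1% higher. The median log2 change of the 9 was -0.85, against 0.0098 over all genes tested. CPM did not overlap between the groups for any of the 9, as was so for 56.8% of all genes. In RNA from whole liver, fewer cells of a type and less RNA per cell cannot be told apart.

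With sulodexide, 1 of the 9 enzymes, Tdo2, rose against vehicle and none fell, where 4.8% of all genes tested were called, 1.39% higher and 3.41% lower. By edgeR at an unadjusted p below 0.05, 3 were higher (Hpd, Tdo2 and Prodh) and 0 lower, and DESeq2 called 1 higher and 0 lower. The shares of all genes higher or lower under these settings were not counted, so neither result has a background here. Their median log2 difference was 0.21, against 0.016 over all genes. Tdo2 and Hpd did not overlap between these groups, as was so for 24.2% of all genes. Against control, 6 of the 9 were lower with TAA and sulodexide and 0 were higher, where 22.6% of all genes were called, 11.4% lower and 11.2% higher. At an unadjusted p below 0.05 in edgeR, 7 were lower and 1, Gldc, was higher, again without a counted share of all genes. Gldc was also the 1 called higher by DESeq2. The median difference was -0.76, against 0.017 over all genes, and 8 of the 9 did not overlap, as was so for 42% of all genes. The 3 comparisons share libraries in pairs, so their values stand side by side and are not independent of each other.

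**Figure D1:**
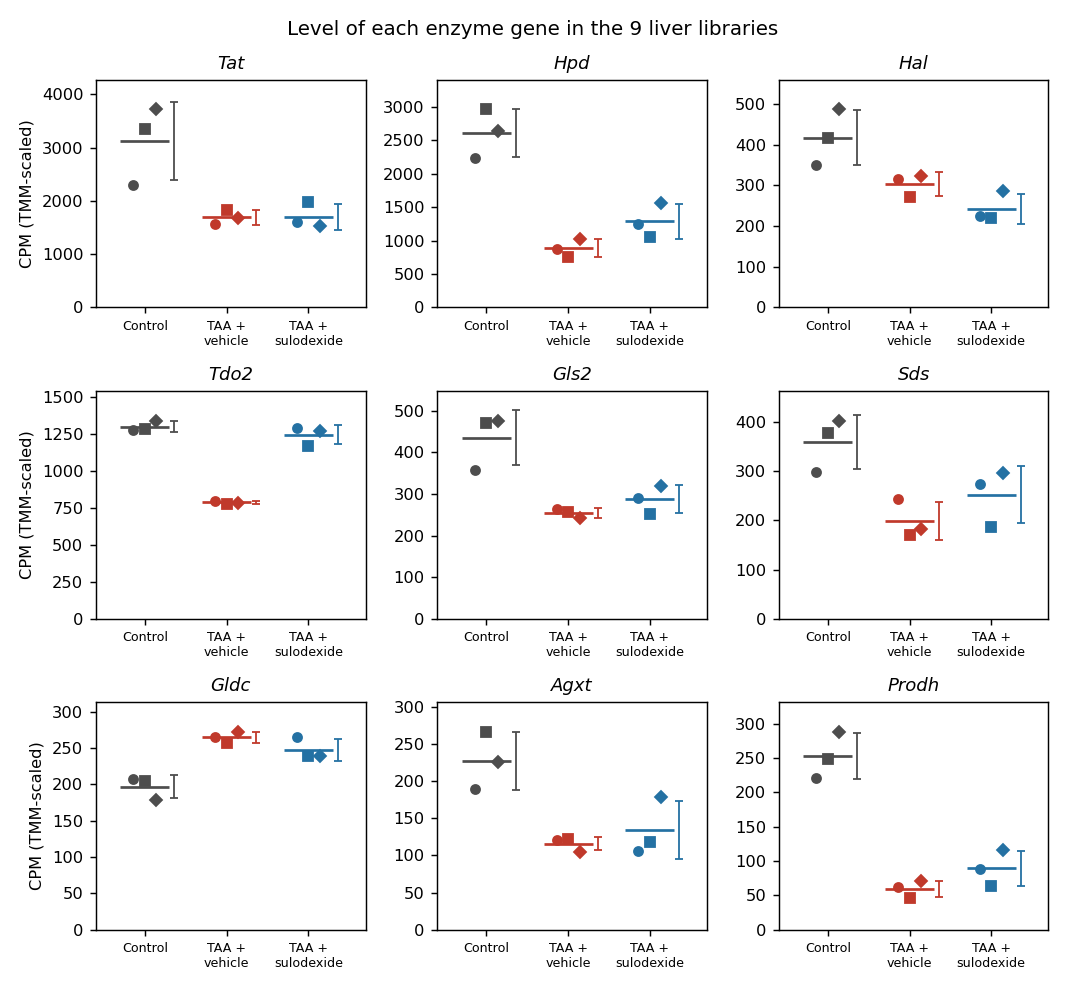
TMM-scaled CPM (vertical axes, 1 panel per gene, each from 0) of the 9 enzymes in each of the 3 libraries per group, with the group mean and SD. All vehicle points lie below the controls for every gene but Gldc, whose controls lie at 179 to 208 and vehicle libraries at 257 to 273 CPM, and Tdo2 with sulodexide, at 1173 to 1294, overlaps the controls at 1280 to 1342.

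Tat (ENSMUSG00000001670, chr8:109990437-109999803, plus strand) makes tyrosine aminotransferase, the first enzyme of tyrosine breakdown and a classical target of glucocorticoids. Its CPM was 2300, 3355 and 3714 in the controls, 1563, 1832 and 1671 with TAA and vehicle, and 1605, 1980 and 1520 with TAA and sulodexide. Every TAA library was below every control, and both TAA groups covered nearly the same range. Tat fell by 45.9% with vehicle (log2 -0.89, SE 0.18, adjusted p = 0.0029) and fell by 45.5% with sulodexide (adjusted p = 0.0070). The log2 difference of sulodexide from vehicle was 0.012, with a 95% interval of -0.39 to 0.41 and an adjusted p of 0.98.

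Hpd (ENSMUSG00000029445, chr5:123171807-123182727, minus strand) makes hydroxyphenylpyruvate dioxygenase, which forms homogentisate in the next step. It had 2240, 2962 and 2637 CPM in the controls, 875, 758 and 1031 with vehicle, and 1253, 1049 and 1559 with sulodexide. The 3 groups did not overlap, with sulodexide between the others. Hpd fell by 66.0% with vehicle (log2 -1.56, SE 0.18, adjusted p = 8.8e-05) and fell by 50.8% with sulodexide (adjusted p = 0.0027). Its difference of 0.54 between sulodexide and vehicle (95% interval 0.14 to 0.93) missed the threshold, with an adjusted p of 0.12.

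Hal (ENSMUSG00000020017, chr10:93488768-93519304, plus strand) makes histidine ammonia-lyase, which turns histidine into urocanate. CPM was 349, 416 and 486 in the controls, 317, 271 and 323 with vehicle, and 224, 219 and 285 with sulodexide. Sulodexide libraries reached lowest, and 1 of them lay inside the vehicle range. Hal fell by 27.2% with vehicle (log2 -0.46, SE 0.16, adjusted p = 0.033) and fell by 41.8% with sulodexide (adjusted p = 0.0052), while sulodexide and vehicle differed by -0.32 (95% interval -0.66 to 0.019, adjusted p = 0.27). The call with vehicle was lost in 9 of 18 alternatives. Scaled by total counts it was -0.054 (adjusted p = 0.76) and scaled by summed hepatocyte markers -0.29 (adjusted p = 0.22), and it was not called without control library 2 or 3 or without any of the vehicle libraries, with adjusted p between 0.050 and 0.12. In the deposited FPKM, which carry no TMM factor, Hal was at 50.7 ± 5.62 in control and 48.8 ± 4.91 with vehicle (SD, n = 3).

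Tdo2 (ENSMUSG00000028011, chr3:81957090-81976202, minus strand) makes tryptophan dioxygenase, which begins the kynurenine pathway and sets most of the tryptophan loss in liver. It had 1280, 1283 and 1342 CPM in the controls, 798, 779 and 785 with vehicle, and 1294, 1173 and 1274 with sulodexide. The vehicle libraries lay close together and far below the rest, and the sulodexide libraries overlapped the controls. Tdo2 fell by 39.5% with vehicle (log2 -0.72, SE 0.11, adjusted p = 0.00044) and rose by 58.3% with sulodexide against vehicle (log2 0.66, SE 0.11, adjusted p = 0.011). Sulodexide and control differed by -0.062 (95% interval -0.30 to 0.18, adjusted p = 0.73). The rise kept its call with each library left out in turn, at adjusted p between 0.018 and 0.048, and lost it when libraries were scaled by hepatocyte markers (log2 0.55, adjusted p = 0.058).

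**Figure D2:**
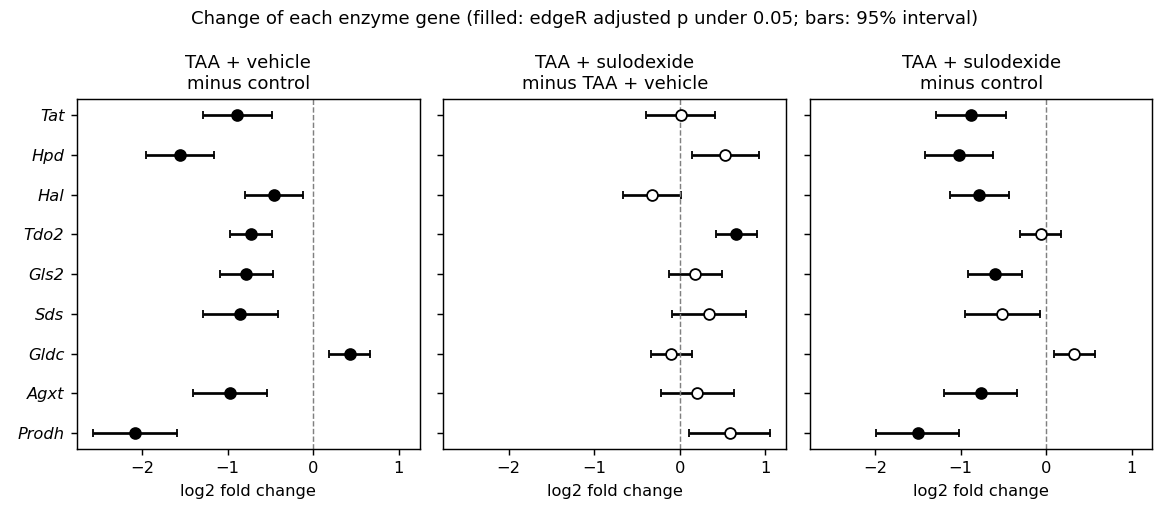
Log2 differences of the 9 enzymes (horizontal axis) in the 3 comparisons, with points for the edgeR estimate, filled where called, and bars for the 95% interval. For TAA with vehicle against control the estimates run from -2.09 for Prodh to 0.43 for Gldc, and for sulodexide against vehicle Tdo2, at 0.66, is the 1 gene that was called.

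Sds (ENSMUSG00000029597, chr5:120476526-120483932, plus strand) makes serine dehydratase, which turns serine into pyruvate for glucose synthesis. It had 298, 379 and 404 CPM in the controls, 244, 171 and 183 with vehicle, and 275, 187 and 296 with sulodexide. All TAA libraries lay below the controls, the highest sulodexide library only just so, and the TAA groups overlapped. Sds fell by 44.7% with vehicle (log2 -0.85, SE 0.20, adjusted p = 0.0056), and this call was lost with total counts (log2 -0.44, adjusted p = 0.080). It was not called for sulodexide against vehicle (log2 0.34, adjusted p = 0.37) or against control (log2 -0.51, adjusted p = 0.086). Sds shares 360 exonic bases with Plbd2 on the opposite strand, whose counts summed to 10978 against 36263 for Sds. As the strand setting of the counting is not given in the sources used here, reads of the pair may not be told apart.

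Gldc (ENSMUSG00000024827, chr19:30098449-30175418, minus strand) makes the decarboxylase of the glycine cleavage system in mitochondria. CPM was 208, 205 and 179 in the controls, 265, 257 and 273 with vehicle, and 266, 239 and 239 with sulodexide. All 6 TAA libraries lay above all 3 controls. Gldc rose by 34.4% with vehicle (log2 0.43, SE 0.11, adjusted p = 0.0094), a call that was lost without control library 3 (log2 0.34, adjusted p = 0.053). Its difference of 0.33 between sulodexide and control (SE 0.11) had an adjusted p of 0.052 and was called with total counts (log2 0.58, adjusted p = 0.0056) and with DESeq2 (adjusted p = 0.013). Sulodexide and vehicle differed by -0.096 (95% interval -0.34 to 0.15, adjusted p = 0.68).

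Agxt (ENSMUSG00000026272, chr1:93135240-93145421, plus strand) makes the aminotransferase that clears glyoxylate by passing it the amino group of alanine. It had 189, 266 and 226 CPM in the controls, 120, 122 and 105 with vehicle, and 106, 117 and 178 with sulodexide. Sulodexide library 3 stood above the other sulodexide libraries and above all vehicle libraries. Agxt fell by 49.0% with vehicle (log2 -0.97, SE 0.20, adjusted p = 0.0024) and fell by 41.1% with sulodexide (adjusted p = 0.017). The second of these calls was lost with total counts (adjusted p = 0.062), without control library 2 (0.067), and without sulodexide library 1 (0.057) or 2 (0.062). Sulodexide and vehicle differed by 0.21 (95% interval -0.22 to 0.63, adjusted p = 0.60), and by -0.050 without sulodexide library 3.

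Gls2 (ENSMUSG00000044005, chr10:128194457-128210004, plus strand) makes the glutaminase that releases ammonia from glutamine in hepatocytes. It had 358, 472 and 477 CPM in the controls, 264, 256 and 241 with vehicle, and 290, 253 and 320 with sulodexide. All TAA libraries were below all controls, and the TAA groups overlapped. Gls2 fell by 41.8% with vehicle (log2 -0.78, SE 0.14, adjusted p = 0.0013) and fell by 33.9% with sulodexide (adjusted p = 0.012, and 0.069 with total counts). Sulodexide and vehicle differed by 0.18 (95% interval -0.13 to 0.49, adjusted p = 0.51). Gls2 shares 97 exonic bases with Spryd4 on the opposite strand, which had 4289 counts in all against 43604.

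Prodh (ENSMUSG00000003526, chr16:18060357-18090203, minus strand) makes proline dehydrogenase, the mitochondrial enzyme that starts proline oxidation. CPM was 221, 248 and 288 in the controls, 61.6, 46.6 and 70.2 with vehicle, and 88.2, 63.6 and 116 with sulodexide. Both TAA groups lay far below the controls and overlapped each other. Prodh fell by 76.5% with vehicle (log2 -2.09, SE 0.22, adjusted p = 5.9e-05), the largest change of the 9, and fell by 64.7% with sulodexide (adjusted p = 0.0010). Its difference of 0.58 between sulodexide and vehicle (95% interval 0.11 to 1.06) was not called, with an adjusted p of 0.16.

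Libraries of 1 group did not always sit at the same place for the 9 genes. Control library 1 was below its group's mean log2 CPM for 8 of the 9, by a median of -0.24. Sulodexide library 2 was likewise below its mean for 8 of the 9 (median -0.15), with Tat as the exception, and sulodexide library 3 was above it for 7 (median 0.24).

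On the per-length scale of FPKM, Tat was the most abundant of the 9 in every group and ranked 61 of 34745 genes in the controls, at 1042 ± 191 FPKM (SD, n = 3). Hpd, at 785 ± 79.4 FPKM, overlapped Tat in the controls and ranked 76. Tdo2 (224 ± 10.1), Sds (137 ± 13.4) and Agxt (80.3 ± 10.9) followed without overlap between neighbours. Hal (50.7 ± 5.62), Gls2 (48.5 ± 4.88), Prodh (46.9 ± 3.83) and Gldc (45.3 ± 5.89) overlapped their neighbours in that order. In both TAA groups Gldc moved from place 9 to place 5, at 79.8 ± 3.21 FPKM with vehicle and 67.8 ± 4.77 with sulodexide, and Prodh came last, at 14.6 ± 2.72 and 19.8 ± 5.55. With sulodexide Gldc overlapped Agxt, which was next below it.

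For each gene, the pattern most like its own was looked for among the other 8 and 75 further amino acid genes, as the smallest root mean square difference between centred log2 CPM profiles over the 9 libraries. Gls2 was nearest to Auh at 0.091, and Tdo2 was nearest to Hibch at 0.13. Hal was nearest to Amdhd1 at 0.13, which acts further down the histidine pathway, and Agxt to Aspg at 0.14. Gldc was nearest to Glud1 at 0.14, Sds to Gls2 at 0.16, Hpd to Ahcy at 0.17 and Tat to Pcca at 0.18, where Pcca shares exonic bases with Ggact. Prodh was nearest to Hpd at 0.28. These differences scale with a gene's own spread over the libraries, which was 0.92 for Prodh and 0.20 for Gldc.

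Most genes of a wider set of amino acid breakdown were lower under TAA with TMM scaling. Of 78 further genes of these pathways, a list also chosen with earlier results of these data known, 75 were tested. Tdh, Dao and Bcat1 had at most 2 counts in any library and were not tested. With vehicle 55 were lower than in control, 3 were higher and 17 were not called, so that 77.3% were called, against 43.4% of all genes tested (20.4% lower and 23.1% higher). Their median log2 change was -0.74, against 0.0098 over all genes. With total counts 35 were lower and 8 higher, where 1156 of all 13701 genes tested were lower and 5756 higher. Ornithine aminotransferase, Oat, fell most, from 818, 958 and 871 CPM to 23.5, 16.4 and 23.0, a drop of log2 -5.39 (SE 0.28, adjusted p = 1.1e-06). Ido2, which also acts on tryptophan, fell by log2 -2.42 (SE 0.17, adjusted p = 4.5e-06). Dhtkd1 of lysine breakdown (log2 -1.53), Hao1, the glycolate oxidase that makes glyoxylate (-1.54), Agxt2 (-1.49) and the sulfite oxidase Suox (-1.13) also fell. Among the genes that rose were Asrgl1 (log2 0.82) and Ethe1 (0.73). The calls of 37 of the 58 held under all 18 alternative settings and 52 under all that leave out 1 library.

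Along the tyrosine route, Hgd and Fah, which act after Hpd, fell with vehicle by log2 -0.76 and -0.90. In histidine breakdown Uroc1 (-0.58), Amdhd1 (-0.50) and Ftcd (-0.97) fell with Hal. The first 2 of these calls were lost with total counts, as was that of Hal. After Tdo2 in the kynurenine pathway, Afmid fell by -1.68, Kynu by -1.20, Haao by -1.02 and Kmo by -0.58. The call of Kmo was lost in 9 of the 18 settings. Afmid shares exonic bases with Gm20708 and Tk1, as does Shmt1, named next, with Smcr8. Amt and Gcsh, partners of Gldc in glycine cleavage, fell by -0.52 and -0.41 where Gldc rose, but with total counts they differed by -0.12 and -0.012 (adjusted p = 0.42 and 0.94) while Gldc was 0.82 higher (adjusted p = 0.00030). Shmt1 (-0.74), Shmt2 (-0.43) and the serine dehydratase relative Sdsl (-0.78) fell, of which Shmt2 and Sdsl were not called with total counts. Grhpr, which reduces glyoxylate, differed by -0.15 (adjusted p = 0.38). Prodh2, the hydroxyproline enzyme, fell by -0.85 and Aldh4a1, which acts after Prodh, by -0.58, the latter call being lost with total counts (adjusted p = 0.15).

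**Figure D3:**
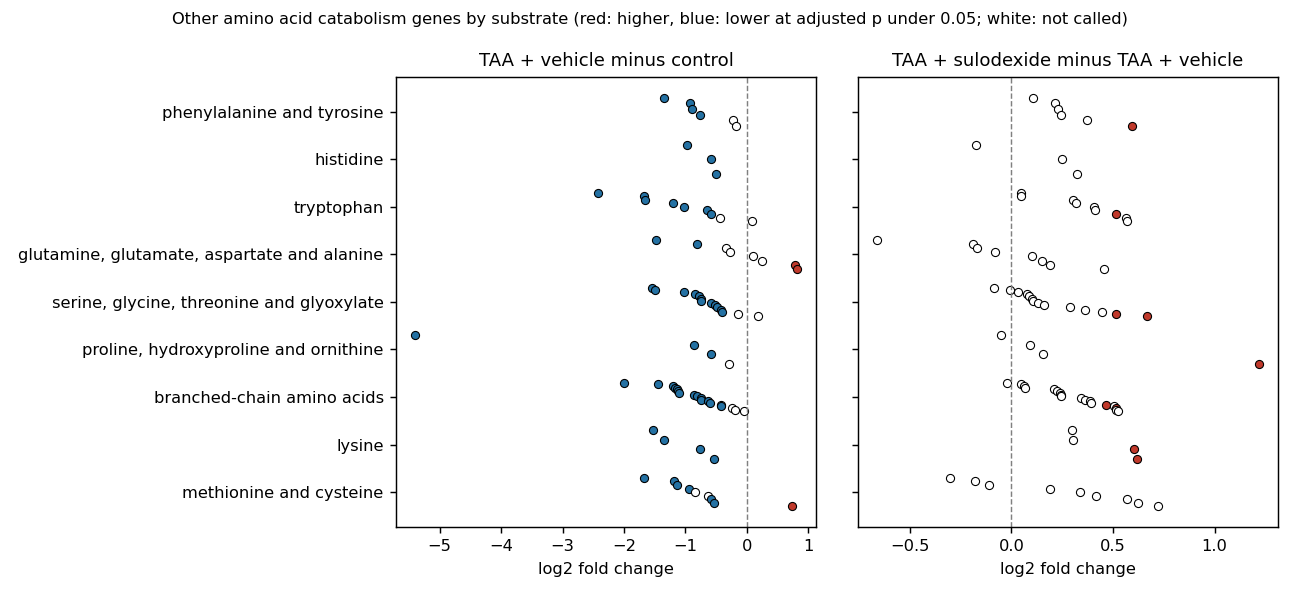
Log2 changes (horizontal axes) of the 75 tested genes of other amino acid breakdown steps, in rows by substrate, for TAA with vehicle against control (left) and sulodexide against vehicle (right), red where higher, blue where lower and white where not called. Blue points fill the left panel, with Oat at -5.39, and the right panel has 9 red points and no blue one, with Oat at 1.22.

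Sulodexide against vehicle gave 9 higher and 0 lower of these 75 genes by edgeR, where 1.39% of all genes were higher and 3.41% lower, with a median of 0.24. At an unadjusted p below 0.05, 28 were higher and 1 was lower, and DESeq2 called 16 higher and 0 lower. For these settings the shares of all genes in each direction were not counted, and those above are for the adjusted p of edgeR. Oat had 63.1, 30.4 and 52.9 CPM with sulodexide, a rise of log2 1.22 (SE 0.24, adjusted p = 0.021) that left it far below control. Hao1 rose by 0.67, Aass by 0.62, Dhtkd1 by 0.60, and Kynu and Dmgdh by 0.51 each. Also called were Hibch and Aldh6a1 of branched-chain amino acid breakdown. No call among these 9 genes of the 75 held under all settings that leave out 1 library. None of them was called without vehicle library 1 or without vehicle library 3. Against control, 42 were lower and 1, Asrgl1, was higher with TAA and sulodexide, where 11.4% of all genes were lower and 11.2% higher, with a median of -0.56. With total counts 27 were lower and 5 higher, where 757 of all 13701 genes tested were lower and 3315 higher.

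The level of the whole set depends on how libraries are scaled. Scaling by total counts moved the median change of all genes by 0.40 for vehicle against control, by -0.14 for sulodexide against vehicle and by 0.26 for sulodexide against control. The share of calls that were higher then went from 53.1% to 83.3%, from 29% to 11.6% and from 49.6% to 81.4%. With total counts the median of the 9 enzymes for vehicle against control was -0.44 where that of all genes was 0.41. On this scale 6 of the 9 were lower and Gldc higher, where 1156 of all 13701 genes tested were lower and 5756 higher. Scaling by 12 summed hepatocyte markers moved the all-gene median by 0.17, -0.11 and 0.056 and gave 69.4%, 9.53% and 58.3% of calls as higher. The sum was mostly Alb. With these markers 7 of the 9 fell with vehicle and Gldc rose, where 1544 of all 13701 genes tested were lower and 3495 higher.

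**Figure D4:**
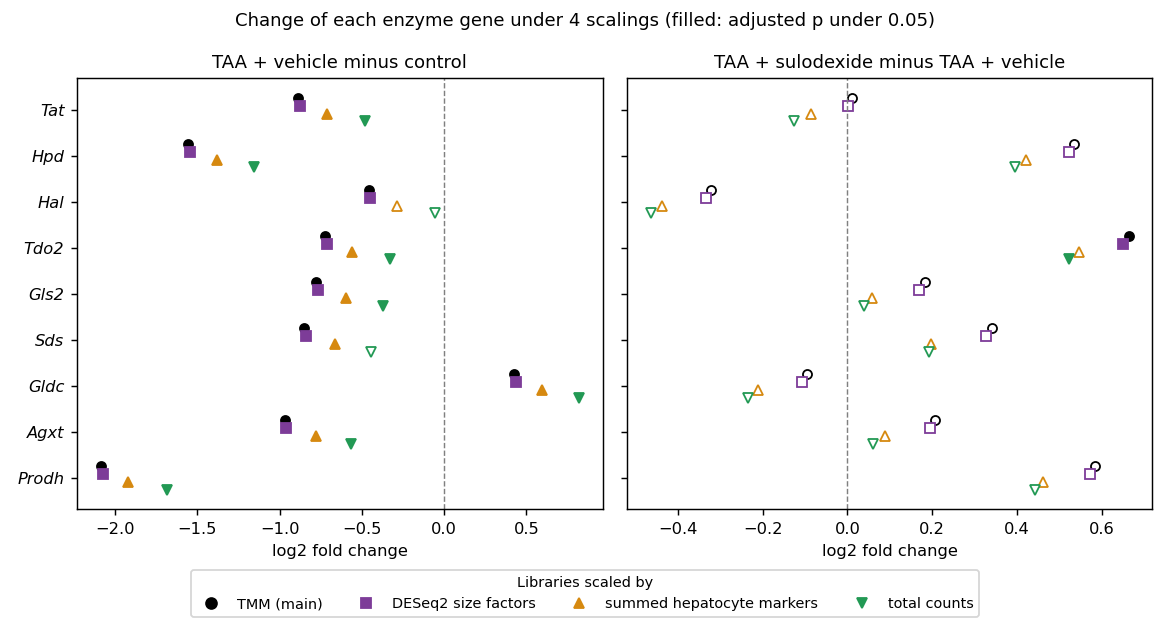
Log2 changes (horizontal axes) of the 9 enzymes under 4 scalings of the libraries, for TAA with vehicle against control (left) and sulodexide against vehicle (right), with filled symbols where the adjusted p was below 0.05. On the left, Hal lies at -0.46 with TMM factors, -0.29 with hepatocyte markers and -0.054 with total counts, the last near 0 and both of these open symbols, while Prodh stays the lowest under all 4.

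The tissue carried its hepatocyte markers in all groups, with none of the 12 at 0 in any library. Their summed CPM was 122565 to 151485 in control, 108248 to 131977 with vehicle and 117684 to 140033 with sulodexide. Most of it was Alb, at 69340 to 85734, 67877 to 83409 and 70152 to 92044 CPM in the same groups. With vehicle 3 of the 12, Apoa1, Apoa2 and Apoh, fell, where 20.4% of all genes tested were lower. Bile duct markers (7 genes) summed to 33.2 to 48.0 CPM in control, 209 to 511 with vehicle and 42.6 to 109 with sulodexide, and myofibroblast markers (7 genes) to 154 to 184, 440 to 741 and 234 to 266. All 7 of each rose with vehicle, where 23.1% of all genes tested were higher. With sulodexide all 7 bile duct and 5 myofibroblast markers fell against vehicle, where 3.41% of all genes were lower. Of these calls 1 of the 7 and 3 of the 5 held with each library left out in turn. Macrophage markers (6 genes) summed to 105 to 132, 164 to 277 and 163 to 365 CPM and lymphocyte markers (7 genes) to 5.89 to 9.99, 15.4 to 46.0 and 13.6 to 21.4. With vehicle 4 of the 5 macrophage markers tested and 5 of the 7 lymphocyte markers rose, where 23.1% of all genes were higher. Of these calls 1 of the 4 and 3 of the 5 held with each library left out in turn. For sulodexide against vehicle none of either list was called, where 4.8% of all genes were. Endothelial markers (6 genes) summed to 147 to 184, 147 to 182 and 146 to 206 CPM. No marker was at 0 in all libraries of a group, and the part of these cells in the changes of the 9 enzymes was not tested.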

How the data were processed

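The authors deposited 1 table with gene counts and FPKM values for 9 mouse liver libraries. Per the labels' protocols, total RNA was purified and mRNA libraries were made from it. HISAT2 2.0.4 was named in the submitters' processing notes, as were StringTie 1.3.0 and the builds mm10 and GRCm38.p4. Neither the counting program nor its strand setting is given in the sources used here. FPKM as deposited by the authors equalled the count over gene length and library total to within 0.0056%, as checked on 11583 genes with at least 10 counts in every library, so they carry no further scaling.

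Analyses used R 4.3.3, edgeR 4.0.16, limma 3.58.1 and DESeq2 1.42.0. Of 34745 genes, 14460 had 0 counts throughout, and filterByExpr (minimum count 10) kept 13701. With TMM factors, 1 edgeR model with a mean per group held all 9 libraries. Each comparison used its quasi-likelihood F-test (robust) with Benjamini-Hochberg adjustment over all genes tested. Dispersion was 0.041 in common, and 6 degrees of freedom were residual and 5.24 prior. Profiles on the log2 CPM scale carry a prior count of 2. SE is the log2 change divided by the root of F, and intervals are at 95%. The scripts were tested on simulated data.

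The 9 genes and the gene lists were chosen with earlier results of these data known. Named beyond the 9 are, per list and comparison, up to 6 called genes by p in each direction, and 20 fixed genes on the same substrate chains; Auh, Hibch, Ahcy, Aspg, Glud1 and Pcca come from the pattern search, and Aldh6a1, marker genes and overlapping genes are named outside the rule, after their values were seen. Kyat1, Kyat3 and Mmut of the list of 78 were matched under older symbols. Sequences are from RefSeq. Libraries were treated as unpaired, since same-numbered libraries correlated only weakly. With 3 libraries per group such correlations cannot settle whether they were paired. Alternatives were total-count, DESeq2 and hepatocyte-marker scaling, no filter, DESeq2, limma on log2(FPKM + 1) and log2(FPKM + 0.1), a replicate block, fits of 2 groups, and leaving out each library. Results for some list genes named by the rule are left out and not reported here. Reads were not used here.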

Additional observations from a re-analysis of the deposited data

How the results depend on the processing

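Over the 9 enzymes, 3 comparisons and 18 alternatives, 449 of 486 results kept direction and side of the threshold, 23 lost a call, 4 gained one and 10 changed sign. The sign changed for Tat between sulodexide and vehicle (main 0.012) with total counts (-0.13), hepatocyte markers (-0.086) and limma on FPKM (-0.13 with either pseudocount), and it ranged from -0.11 to 0.093 when single libraries were left out. That of Agxt ranged from -0.050 to 0.35. Tdo2 between sulodexide and control was 0.20 with total counts and 0.19 with limma on FPKM at either pseudocount, where the median of all genes had shifted upward too.

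For vehicle against control, amino acid list genes higher were 8 with total counts or limma on FPKM, against 3, and those lower 35 with total counts and 36 with limma on log2(FPKM + 1), against 55. Gldc was the 1 of 9 higher, and leaving out single libraries gave 0 to 1, with 0 without control library 3. For sulodexide against vehicle, the list genes higher were 4 with total counts or limma on FPKM, against 9. They were 1 with hepatocyte markers or the fit of only these groups, 16 with DESeq2 and 0 to 7 without single libraries. Of all 13701 genes tested, 91 were higher with total counts and 55 with hepatocyte markers, against 191. The enzyme higher, Tdo2, became 0 with hepatocyte markers. All genes called were 1142 with DESeq2 and 386 in the fit of only these groups, against 658, and 140 to 859 without single libraries (177 without vehicle library 1, 143 without vehicle library 3, 140 without sulodexide library 2, 362 without sulodexide library 3).

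For sulodexide against control, 1 enzyme, Gldc, was higher with total counts, DESeq2 or limma on FPKM. List genes higher were 5 with total counts or limma on FPKM and 2 with DESeq2 or the fit of only these groups, against 1, and 1 to 2 without single libraries. Those lower were 27 with total counts and with limma on log2(FPKM + 0.1), against 42, and 32 to 44 without single libraries. All genes called ranged from 2033 (without control library 2) to 3191, with 2064 without control library 3, against 3101. With a replicate block the enzymes called were the same number in each comparison (1 higher and 8 lower, 1 and 0, 0 and 6), all genes called were 5766, 649 and 2984, and list genes higher against control with sulodexide were 2. The pairing check gave correlations from -0.07 to 0.14 between same-numbered libraries, 2 of 9 over 0.1. The cause of these shifts was not tested.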

Other observations

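Other gene groups around amino acid use were measured. Amino acid transporters (10 genes) fell in 7 cases with TAA and vehicle against control and rose in 1, where 20.4% of all genes tested were lower and 23.1% higher. Total counts gave 4 lower and 2 higher, where 1156 of all 13701 genes tested were lower and 5756 higher. Slc25a15, 1 of the 7, changed sign in 3 of 18 alternatives. Slc43a1, a carrier of branched-chain amino acids, fell from 20.4 to 22.0 CPM in control to 7.06 to 8.71 with vehicle (log2 -1.43, SE 0.13, adjusted p = 2.4e-05). With sulodexide it was at 13.7 to 15.5 CPM and rose against vehicle (log2 0.88, adjusted p = 0.0087), a call kept under all 18 alternatives. Slc16a10, a carrier of aromatic amino acids, fell by log2 -1.25 and rose with sulodexide by 0.71, a call lost without vehicle library 1 (adjusted p = 0.096) or 3 (0.096). Slc1a4, a carrier of neutral amino acids, rose from 3.85 to 5.68 CPM in control to 10.4 to 18.0 with vehicle (log2 1.57, adjusted p = 0.00044). It fell with sulodexide to 6.03 to 6.84 CPM (log2 -1.06, adjusted p = 0.026), a call lost without vehicle library 1 or 3 or any sulodexide library.

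Of 13 regulators of these enzymes, 6 fell with vehicle and 0 rose by edgeR, and 1 was higher by DESeq2. At an unadjusted p below 0.05 in edgeR, 8 were lower and 1, Cebpb, was higher, without a counted share of all genes. The 46.2% of regulators called by edgeR was close to the 43.4% of all genes called in either direction. All of these regulators were lower, where 20.4% of all genes tested were lower and 23.1% higher. Total counts gave 2 lower and 3 higher, where 1156 of all 13701 genes tested were lower and 5756 higher. The glucagon receptor Gcgr fell by log2 -1.02 and Cebpa by -1.09, and both calls held under all alternatives. The glucocorticoid receptor Nr3c1 fell by -0.63, a call lost in 7 of 18 alternatives. With sulodexide Foxa2 rose by 0.88 against vehicle (adjusted p = 0.014, and 0.060 without vehicle library 3), and Cebpa rose by 0.58, a call lost in 8 alternatives.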
